A study of Homo sapiens with 6 samples.

Results

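The nuclear genes of oxidative phosphorylation were followed in neural stem cells after 24 h with the compound X5050, against the same cells with the solvent DMSO. Members were the genes measured by a probe set with exactly 1 annotated gene symbol that begins as the complex I to V subunit symbols do (NDUFA, NDUFB, NDUFC, NDUFS, NDUFV, SDHA to SDHD, UQCR, COX4 to COX8 and ATP5). This took 97 probe sets and, keeping for each symbol the probe set with the highest mean over the 6 arrays, 89 genes of the 18417 symbols on the array. Of the 89 genes, 77 encode subunits: 34 of complex I, 3 of complex II, 7 of complex III, 16 of complex IV and 17 of complex V. The other 12 share only the symbol: 8 are assembly factors, 1 is the ATP synthase inhibitor ATP5IF1, and 3 are other loci (ATP5F1EP2, UQCRBP1 and NDUFV1-DT). The subunits NDUFA4, NDUFA4L2, SDHB and UQCRFS1 had no such probe set and were not analysed here, nor were the subunits that mitochondrial DNA encodes.

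X5050, which the series title names an inhibitor of the neuronal gene repressor REST, was given at 100 µM, and DMSO at 0.1%. The cells were human embryonic stem cell derivatives of the line SA-01 at passage 14, and treatment began 5 h after plating on polyornithine and laminin. Each treatment had 3 arrays from 3 independent cultures of this 1 line, paired here by replicate number, and 1 array was hybridised per sample. The study has no untreated cells, no other dose and no other time.

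Oxidative phosphorylation passes electrons from NADH (complex I) and succinate (complex II) through complex III to oxygen at complex IV, and complex V (ATP synthase) uses the proton gradient so built to make ATP. Complex II aside, each complex has a few subunits that carry the catalytic centres and a larger number of small accessory subunits. Neural stem cells lean on glycolysis and raise respiration as they become neurons.

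A change below means the log2 signal under X5050 less the signal under DMSO, averaged over the 3 cultures. Tests are those of limma with the culture as a block, fitted to all 19460 probe sets with 1 symbol, and adjusted p means Benjamini-Hochberg over all of these. A gene is called separate where its 3 X5050 values all lay below its 3 DMSO values. With 3 cultures the precision is limited, and the paired SE of a member lay between 0.0862 and 0.157. This SE is moderated: limma draws the variance of each gene towards a value shared by all tested probe sets.

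Most oxidative phosphorylation genes were slightly lower with X5050, and none passed the test at an adjusted p under 0.05. The change was below 0 for 68 of the 89 genes (76.4%), where 47.3% of all tested probe sets were below 0, and its median was -0.13 against 0.0092 over all tested probe sets. In the fit 0 members passed in either direction, where 0.308% of all tested probe sets passed as lower and 0.19% as higher (0.498% in either direction). The smallest adjusted p among the members in limma was 0.0905, for ATP5IF1. At an unadjusted p under 0.05 there were 27 members that were lower and 1 that was higher, and over all tested probe sets these shares were 7.48% and 7.06%. Without the culture block there were 26 and 0 such members, where 4.88% and 4.5% of all tested probe sets were lower and higher. The values were separate for 31 members (34.8%, against 7.41% of all tested probe sets), and 43 were lower in all 3 cultures (48.3%, against 17.5%). In the opposite direction 3 members were higher in all 3 cultures (against 18% of all tested probe sets), namely NDUFV2, COX7A2L and NDUFAF1. For 2 of these, NDUFV2 and NDUFAF1, every X5050 value lay above every DMSO value (against 7.51% of all tested probe sets). The sizes were small: the extremes were a 1.40-fold lower signal for COX6C and a 1.15-fold higher one for NDUFAF1.

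**Figure D1:**
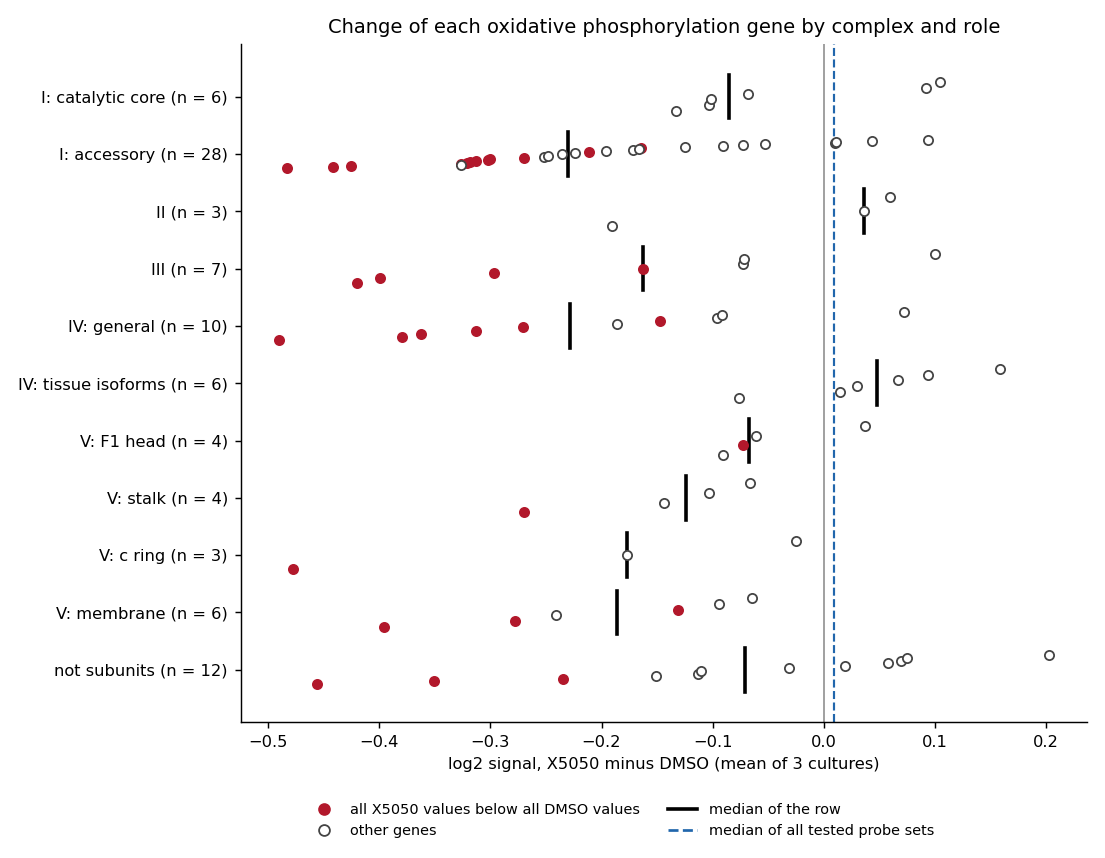
Each point is 1 of the 89 genes, placed by its log2 change under X5050 against DMSO (mean of 3 cultures) on the x axis and by complex and role on the y axis. Red points are genes whose 3 X5050 values all lay below their 3 DMSO values, black bars are row medians and the dashed line is the median of all tested probe sets (0.0092). The 28 complex I accessory genes have a median of -0.23 and the 6 core genes one of -0.085.

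Transcription of many of these genes is known to depend on the factors NRF1, GABPA (an ETS factor) and YY1. Promoters are shown for the genes with the lowest changes, beside a complex I core gene and the ATP synthase alpha subunit gene, both near 0. RefSeq promoters (GRCh38.p14, 250 bases before to 50 after the start) were found for 74 of the 89 genes, the first listed one being used for the 10 genes with several. The NRF1 core GCGCATGC, read on both strands, was in 14 of the 74 (18.9%), against 4.19% of 14237 promoters of tested genes. The ETS core CCGGAAG was in 20 (27%, against 14.6%) and the YY1 core AAGATGG in 15 (20.3%, against 6.51%). Promoters of the separate genes held the ETS core in 12 of 26 and those of the other members in 8 of 48. For the NRF1 core these counts were 5 of 26 and 9 of 48, and for the YY1 core 4 of 26 and 11 of 48. The genes were split by their measured change, so these counts carry no test, and a match is only a run of letters.

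Printed are the promoters of the gene with the lowest change in complexes I, III, IV and V that had a printable one. The promoter of ATP5ME follows, which held all 3 motifs, as did that of ATP5PF (not printed). After it come those of the complex I core gene NDUFS1 and the alpha subunit gene ATP5F1A. They lie in GRCh38.p14 as follows: NDUFA2 at chr5:140647581-140647880 (- strand), UQCR11 at chr19:1605413-1605712 (- strand), COX8A at chr11:63974370-63974669 (+ strand), ATP5MC1 at chr17:48892537-48892836 (+ strand), ATP5ME at chr4:674227-674526 (- strand), NDUFS1 at chr2:206159395-206159694 (- strand) and ATP5F1A at chr18:46104178-46104477 (- strand). Capitals mark matches to any of the 3 motifs on either strand, which do not overlap here.
NDUFA2: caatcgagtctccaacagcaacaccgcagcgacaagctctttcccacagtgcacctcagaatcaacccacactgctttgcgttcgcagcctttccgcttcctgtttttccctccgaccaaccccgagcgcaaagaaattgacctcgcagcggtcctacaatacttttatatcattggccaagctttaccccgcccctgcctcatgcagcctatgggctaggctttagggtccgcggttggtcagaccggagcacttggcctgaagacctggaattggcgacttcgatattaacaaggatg
UQCR11: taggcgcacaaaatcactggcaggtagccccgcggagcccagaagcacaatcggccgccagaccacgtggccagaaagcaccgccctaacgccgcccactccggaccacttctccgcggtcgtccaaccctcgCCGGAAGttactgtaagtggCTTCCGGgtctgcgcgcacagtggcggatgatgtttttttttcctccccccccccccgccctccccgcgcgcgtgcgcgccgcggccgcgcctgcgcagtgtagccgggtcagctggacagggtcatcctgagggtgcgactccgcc
COX8A: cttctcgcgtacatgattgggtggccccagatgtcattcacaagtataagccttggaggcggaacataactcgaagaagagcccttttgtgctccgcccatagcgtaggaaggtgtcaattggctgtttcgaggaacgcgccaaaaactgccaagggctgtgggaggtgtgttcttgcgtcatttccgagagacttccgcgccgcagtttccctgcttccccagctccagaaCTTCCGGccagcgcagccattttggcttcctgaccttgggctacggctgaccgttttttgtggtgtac
ATP5MC1: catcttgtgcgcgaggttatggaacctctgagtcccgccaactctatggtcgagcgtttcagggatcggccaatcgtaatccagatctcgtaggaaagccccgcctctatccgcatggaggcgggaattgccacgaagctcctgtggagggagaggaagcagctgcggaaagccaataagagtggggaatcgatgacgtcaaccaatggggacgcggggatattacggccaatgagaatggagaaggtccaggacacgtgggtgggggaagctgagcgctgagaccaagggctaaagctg
ATP5ME: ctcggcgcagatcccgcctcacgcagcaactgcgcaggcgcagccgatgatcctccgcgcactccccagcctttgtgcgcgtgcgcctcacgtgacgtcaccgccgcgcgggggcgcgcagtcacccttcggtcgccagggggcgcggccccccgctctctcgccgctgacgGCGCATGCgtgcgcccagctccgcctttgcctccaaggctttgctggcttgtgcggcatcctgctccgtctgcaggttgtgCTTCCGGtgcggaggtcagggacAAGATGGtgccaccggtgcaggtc
NDUFS1: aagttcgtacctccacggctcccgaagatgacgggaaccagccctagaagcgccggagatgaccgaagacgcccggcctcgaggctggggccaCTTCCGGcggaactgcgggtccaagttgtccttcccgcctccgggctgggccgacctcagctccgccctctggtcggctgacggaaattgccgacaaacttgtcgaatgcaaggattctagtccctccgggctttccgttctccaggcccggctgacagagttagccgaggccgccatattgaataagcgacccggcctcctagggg
ATP5F1A: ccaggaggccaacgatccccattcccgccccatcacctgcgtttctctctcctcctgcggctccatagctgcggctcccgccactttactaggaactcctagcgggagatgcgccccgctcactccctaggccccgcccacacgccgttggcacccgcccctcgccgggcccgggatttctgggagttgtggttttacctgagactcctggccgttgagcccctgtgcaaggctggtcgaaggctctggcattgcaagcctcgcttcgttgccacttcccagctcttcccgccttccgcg
UQCR11 holds the ETS core on each strand, COX8A and NDUFS1 hold it on the minus strand of the printed window, and NDUFA2, ATP5MC1 and ATP5F1A hold none of the 3 motifs as spelled here. Matches were therefore present and absent both among the genes with the lowest values and among those near 0.

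Complex I, which oxidises NADH and hands its electrons to ubiquinone, had 28 of 34 genes below 0 and a median of -0.18, which was -0.10 without culture 3 and, without the block, -0.082 without the DMSO array of culture 3. The 6 genes of its catalytic core and the 28 accessory genes differed in their values. Among the accessory genes 24 were below 0, 12 were separate (42.9%, against 7.41% of all tested probe sets) and the median was -0.23. In the core 4 were below 0, 0 were separate and the median was -0.085. A group of 6 genes can hold 0 separate ones at a share of 7.41%. The split into core and accessory genes was made after the values were seen and was not tested. NDUFA2, an accessory subunit of the matrix arm, had signals of 7.63, 7.47 and 7.65 with X5050 in cultures 1, 2 and 3, against 7.80, 8.06 and 8.34 with DMSO. Its values were separate, with the widest gap in culture 3, and its change was -0.48 (paired SE 0.117, adjusted p = 0.115 in limma). NDUFB3, an accessory subunit of the membrane arm, had 7.45, 7.29 and 7.14 with X5050, against 7.77, 7.61 and 7.82 with DMSO, a change of -0.44 (paired SE 0.104, adjusted p = 0.11 in limma). NDUFB6, of the same arm, had 7.12, 6.77 and 7.02 with X5050, against 7.46, 7.45 and 7.27 with DMSO, a change of -0.43 (paired SE 0.106, adjusted p = 0.122 in limma). Both genes were separate and lower in every culture.

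Other separate genes of complex I were NDUFB9, NDUFB4, NDUFB7 and NDUFA1 of the membrane arm, NDUFA11, the acyl carrier protein NDUFAB1, and NDUFS6, NDUFA12 and NDUFV3 of the matrix arm, with changes between -0.33 for NDUFB9 and -0.16 for NDUFV3. NDUFB1 (-0.33) was lower in every culture too, but its groups overlapped. NDUFB4 is on the array as 2 probe sets with identical values. Against these, the core gene NDUFS1, an iron-sulphur subunit, had signals of 10.32, 9.999 and 10.20 with X5050 and 10.16, 10.08 and 10.003 with DMSO. Its groups overlapped, and its change was 0.092 (95% interval -0.13 to 0.31, adjusted p = 0.743 in limma). NDUFV1, which binds NADH, had 9.002, 8.63 and 9.07 with X5050, against 8.81, 8.96 and 9.14 with DMSO. It was higher in culture 1 and lower in cultures 2 and 3, with a change of -0.068 (95% interval -0.33 to 0.19, adjusted p = 0.859 in limma) and of 0.063 without culture 2. NDUFV2, its iron-sulphur partner, was 10.38, 10.41 and 10.31 with X5050, against 10.22, 10.25 and 10.31 with DMSO. Its X5050 values all lay above its DMSO values, with the narrowest gap in culture 3, and the change was 0.10 (95% interval -0.10 to 0.31, adjusted p = 0.676 in limma). A dimmer probe set of NDUFV2 stood at 0.094, with overlapping groups and a lower value in culture 3 (-0.051). For the accessory gene NDUFS4 the 2 probe sets differed in sign, at -0.17 on the brighter and 0.20 on the dimmer one. Of NDUFS3, NDUFS7 and NDUFS8, the other core genes measured, all had changes between -0.13 and -0.10 with overlapping groups.

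Complex II, the succinate dehydrogenase that is also an enzyme of the tricarboxylic acid cycle and is encoded by nuclear genes alone, had 3 genes measured and a median of 0.036, which was -0.0088 without culture 1. SDHA, the flavoprotein that oxidises succinate, had signals of 9.63, 9.58 and 9.41 with X5050, against 9.44, 9.54 and 9.48 with DMSO (change 0.059, 95% interval -0.15 to 0.27, adjusted p = 0.849 in limma), and stood at -0.0088 without culture 1. SDHD, a membrane anchor, had 8.78, 8.76 and 8.75 with X5050, against 8.74, 8.67 and 8.77 with DMSO (change 0.036, adjusted p = 0.908 in limma). SDHC, the other anchor, had 9.13, 8.88 and 9.11 with X5050, against 9.12, 9.18 and 9.39 with DMSO (change -0.19, paired SE 0.0986, adjusted p = 0.437 in limma). In all 3 genes the groups overlapped. The dimmer probe sets of SDHC and SDHD stood at -0.12 and 0.082. Probe sets that share a gene symbol can also detect near-identical copies of the gene, which these values cannot separate.

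In complex III, which passes electrons from ubiquinol to cytochrome c, 6 of 7 genes were below 0 and the median was -0.16. It was -0.29 without culture 1 and, without the block, also -0.29 without the DMSO array of culture 1. The 4 separate genes (57.1%, against 7.41% of all tested probe sets) encode small subunits. UQCR11 had signals of 7.02, 6.75 and 7.01 with X5050, against 7.15, 7.32 and 7.57 with DMSO (change -0.42, paired SE 0.112, adjusted p = 0.14 in limma). UQCR10 had 8.56, 8.505 and 8.36 with X5050, against 8.82, 8.81 and 8.99 with DMSO (change -0.40, paired SE 0.102, adjusted p = 0.131 in limma). UQCRH, the hinge protein beside cytochrome c1, had 8.45, 8.26 and 8.42 with X5050, against 8.66, 8.74 and 8.62 with DMSO (change -0.30, adjusted p = 0.202 in limma), and UQCRQ stood at -0.16. The 2 large structural subunits lay nearer 0 than the separate genes, as did the subunit UQCRB, and this split was not tested. CYC1, the cytochrome c1 of this complex, lies outside the symbol pattern. It stood at -0.16 with overlapping groups, near the separate gene UQCRQ. UQCRC1 had 6.81, 6.62 and 6.72 with X5050, against 6.69, 6.95 and 6.73 with DMSO (change -0.072, 95% interval -0.32 to 0.17, adjusted p = 0.837 in limma), and was 0.054 without culture 2. UQCRC2 stood at 0.10. UQCRB, a ubiquinone-binding subunit, had the widest spread of any member over the DMSO arrays (SD 0.454, n = 3), with 5.37, 5.36 and 5.38 with X5050 and 5.01, 5.92 and 5.40 with DMSO. Its change of -0.072 was 0.17 without culture 2.

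In complex IV, the cytochrome c oxidase, the 10 general subunit genes and the 6 genes of tissue isoforms had different medians but overlapping values, and this split by role was not tested. Of the general subunits 9 were below 0, 6 were separate (60%, against 7.41% of all tested probe sets) and the median was -0.23. Of the isoforms known mainly from muscle, lung or testis 1 was below 0, 0 were separate and the median was 0.048. At a share of 7.41%, 6 genes can hold 0 separate ones. Over all 16 genes the median was -0.094, but -0.17 without culture 1 and also -0.17 without dim probe sets. Without the block it was -0.038 without the DMSO array of culture 3, -0.051 without the X5050 array of culture 2 and -0.15 without the DMSO array of culture 2. COX6C had the lowest change of all members, with signals of 10.21, 9.92 and 10.05 with X5050, against 10.40, 10.45 and 10.80 with DMSO (change -0.49, paired SE 0.117, adjusted p = 0.114 in limma). COX8A had 8.70, 8.61 and 8.70 with X5050, against 8.90, 8.93 and 9.32 with DMSO (change -0.38, paired SE 0.106, adjusted p = 0.154 in limma). COX7A2 had 9.94, 9.58 and 9.74 with X5050, against 10.07, 9.96 and 10.32 with DMSO (change -0.36, paired SE 0.108, adjusted p = 0.173 in limma). In these 3 genes every X5050 value was below every DMSO value, and the DMSO array of culture 3 was the highest.

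The remaining separate general subunits were COX5B (-0.31), COX7C (-0.27) and COX6B1 (-0.15). COX4I1, the regulatory subunit present in most tissues, had 8.71, 8.57 and 8.71 with X5050, against 8.62, 8.75 and 8.92 with DMSO (change -0.096, 95% interval -0.32 to 0.13, adjusted p = 0.739 in limma). COX5A was the general subunit above 0 (0.072, adjusted p = 0.795 in limma), and COX6A1 stood at -0.092 on both of its probe sets. The isoform COX4I2, known as the lung form, had 5.46, 5.34 and 5.60 with X5050, against 5.66, 5.39 and 5.58 with DMSO (change -0.077). The muscle isoforms COX6A2 and COX7A1 stood at 0.015 and 0.094, and the testis isoforms COX8C, COX6B2 and COX7B2 at 0.16, 0.067 and 0.030. COX6A2 stood at -0.0042 with arrays centred on their medians and at -0.029 without culture 3, and COX7A1 at -0.026 without culture 1. The isoforms COX7A1, COX8C, COX6B2 and COX7B2 were in the lowest quartile of mean signal over tested probe sets, where no detection call is at hand.

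**Figure D2:**
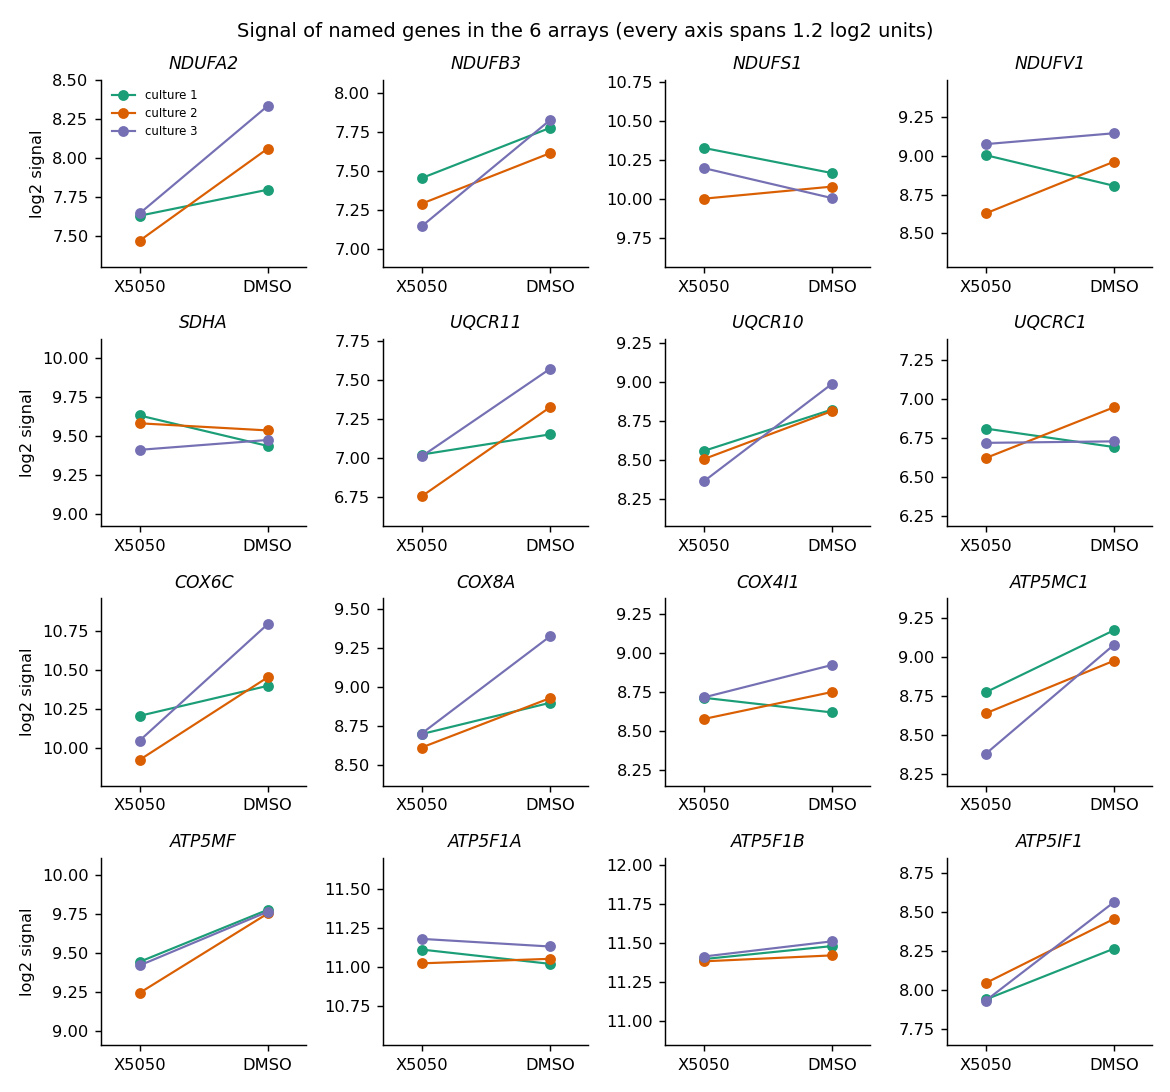
Log2 signal (y axis) of 16 named genes with X5050 on the left and DMSO on the right, lines joining the samples of 1 culture. Every panel spans the same range of log2 signal. NDUFA2, NDUFB3, UQCR11, UQCR10, COX6C, COX8A, ATP5MC1, ATP5MF and ATP5IF1 are lower with X5050 in each culture without overlap, while NDUFS1, NDUFV1, SDHA, UQCRC1, COX4I1 and ATP5F1A overlap.

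In complex V, the ATP synthase, 16 of 17 genes were below 0. Separate genes numbered 6 (35.3%, against 7.41% of all tested probe sets), and the median change was -0.10. It was -0.17 without culture 1, -0.061 without culture 3 and, without the block, -0.053 without the DMSO array of culture 3. ATP5MC1, 1 of 3 genes that encode the same mature subunit of the rotating c ring, had signals of 8.77, 8.64 and 8.38 with X5050, against 9.17, 8.98 and 9.08 with DMSO. It was separate and lower in all 3 cultures, with a change of -0.48 (paired SE 0.102, adjusted p = 0.0915 in limma). Its sister genes ATP5MC2 and ATP5MC3 stood at -0.18 and -0.025 with overlapping groups. ATP5MF, the membrane subunit f, had 9.44, 9.24 and 9.42 with X5050, against 9.78, 9.75 and 9.76 with DMSO. Its DMSO values were the closest to each other among the named genes (SD 0.012, n = 3), and its change was -0.40 (paired SE 0.0902, adjusted p = 0.107 in limma). ATP5MK, a small membrane subunit, had 10.17, 9.96 and 9.90 with X5050, against 10.34, 10.19 and 10.33 with DMSO (change -0.28, adjusted p = 0.218 in limma). A dimmer probe set of ATP5MK stood at -0.45 (adjusted p = 0.0709 in limma).

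The 4 genes of the F1 head, where ATP is made, had a median of -0.067. ATP5MC1, ATP5MF and ATP5MK were named for their small p, so other genes of the complex tend to lie nearer 0. Some genes outside the head did too, among them ATP5MC3 (-0.025), ATP5MJ (-0.065) and ATP5PO (-0.066). The split by role was made after the values were seen and was not tested. ATP5F1A, the alpha subunit, had 11.11, 11.02 and 11.18 with X5050, against 11.02, 11.05 and 11.13 with DMSO (change 0.037, 95% interval -0.16 to 0.24, adjusted p = 0.904 in limma). ATP5F1B, the catalytic beta subunit, had 11.40, 11.38 and 11.41 with X5050, against 11.48, 11.42 and 11.51 with DMSO. It was separate by a narrow margin, with a change of -0.073 (95% interval -0.27 to 0.12, adjusted p = 0.784 in limma). ATP5F1C, the gamma subunit of the central stalk, stood at -0.061, and at 0.0089 after another quantile normalization. The 4 genes of the peripheral stalk had a median of -0.12, with the lowest value for ATP5PF (-0.27), and the 6 genes of the membrane part one of -0.19.

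Among the 12 members that are not subunits 7 were below 0 and the median was -0.071. It was -0.025 without culture 1 and -0.012 without culture 3, and without the block it ran from -0.14 without the X5050 array of culture 2 to -0.0027 without that of culture 3. ATP5IF1, which binds ATP synthase and blocks its reverse reaction, had the smallest p of all 89 genes. Its signals were 7.94, 8.04 and 7.93 with X5050, against 8.26, 8.45 and 8.56 with DMSO, separate and lower in every culture (change -0.46, 1.37-fold, paired SE 0.0968, adjusted p = 0.0905 in limma). NDUFAF1, a complex I assembly factor, was the member with the highest change, with 7.25, 7.07 and 7.06 with X5050, against 6.99, 6.91 and 6.88 with DMSO (change 0.20, paired SE 0.0873, adjusted p = 0.337 in limma). Its X5050 values lay above its DMSO values. NDUFAF4, another complex I assembly factor, stood at -0.23 and was separate in the other direction. The remaining assembly factors were between -0.15 for NDUFAF6 and 0.070 for NDUFAF3, and COX7A2L, which joins complexes into supercomplexes, stood at 0.058.

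The 3 cultures differed in the size of the change and, for some groups, in its sign. The median change of the 89 genes was -0.020 in culture 1, -0.16 in culture 2 and -0.21 in culture 3, and the medians of all tested probe sets were 0.00062, 0.0030 and 0.0040. Members below 0 numbered 50 in culture 1, 71 in culture 2 and 77 in culture 3, where 49.8%, 49.4% and 49.1% of all tested probe sets were below 0. For complex I the medians in cultures 1, 2 and 3 were -0.064, -0.15 and -0.31, for complex III -0.024, -0.33 and -0.20, for complex IV 0.0045, -0.18 and -0.22, and for complex V 0.0014, -0.16 and -0.20. For complex II they were 0.042, 0.046 and -0.063, and for the 6 core genes of complex I 0.16, -0.071 and -0.13. A single culture has no replicate, so these values carry no test.

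A pair of arrays stood apart in these genes. The DMSO array of culture 3 held the highest of the 6 values for 51 of the 89 members (57.3%, against 20.6% of all tested probe sets), and the X5050 array of culture 2 held the lowest for 44 (49.4%, against 20.5%). Without culture 3 the median change of the members was -0.083, without culture 2 -0.12 and without culture 1 -0.19. Without the culture block and without the DMSO array of culture 3 it was -0.079 with 65 genes below 0, and without the X5050 array of culture 2 it was -0.11 with 69 below 0. Without culture 1 the limma fit called 3 members as lower, COX6C, NDUFA2 and UQCR11 (3 of 89, where 1.78% of all tested probe sets were called), without culture 2 it called 0 (0.416%), and without culture 3 it called 0 (0%). What sets these arrays apart was not tested.

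**Figure D3:**
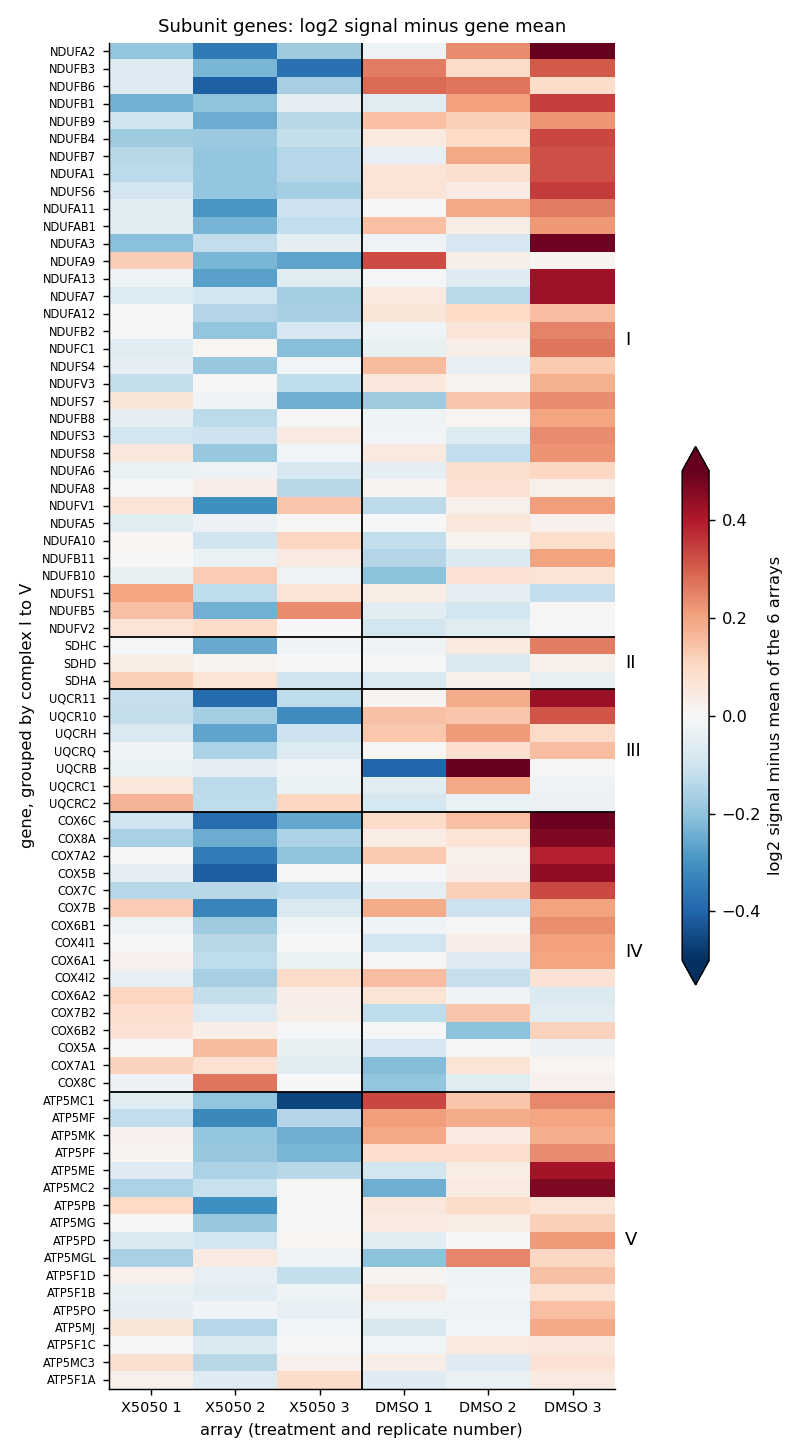
Log2 signal of the 77 subunit genes (rows, grouped by complex and sorted by change) in the 6 arrays (columns, X5050 left, DMSO right), each gene minus its mean over the arrays; colours saturate at the ends of the scale. The column of the DMSO array of culture 3 is the reddest and that of the X5050 array of culture 2 the bluest.

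Across the 89 genes the change correlated with log10 gene length (the span in GRCh38.p14) at Pearson r = 0.159, as it did at 0.171 over 19429 tested probe sets with a length, and with mean log2 signal at -0.156. These are correlations across genes of the same 6 arrays and genes are not replicates. Subtracting the trend over all tested probe sets left a median of -0.11 for length and also of -0.11 for signal. Among members in the lowest quartile of gene length the median was -0.10 over 40 genes, where all tested probe sets of that quartile had -0.0045. In the next quartile it was -0.17 over 32 genes, where all tested probe sets had -0.0098. In the third length quartile it was -0.017 over 12 genes, of which 6 were below 0, where all tested probe sets had a median of 0.0037 and 48.9% below 0. In the longest quartile 3 of 5 members were below 0 (median -0.11, against 0.048 over all tested probe sets), but 1 of the 3 subunits there (median 0.010). No difference between quartiles was tested.

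The other nuclear genes of respiration and its supply were mixed. In each of the following lists 0 genes passed the test in limma, where 0.498% of all tested probe sets passed. Lists this short can hold 0 at that share. Cytochrome c (CYCS), the carrier between complexes III and IV, had 9.35, 9.07 and 9.33 with X5050, against 9.78, 9.53 and 9.67 with DMSO, separate and with a change of -0.41 (paired SE 0.0878, adjusted p = 0.0915 in limma), and CYC1, the cytochrome c1 of complex III, stood at -0.16. Of 36 further assembly factors 21 were below 0, with a median of -0.049, among them COX20 (-0.27) and, above 0, TIMMDC1 (0.23) and SURF1 (0.22). Of 14 biogenesis factors 10 were below 0 with a median of -0.11. PPARGC1A, the coactivator that raises mitochondrial gene expression, was the exception in size, with 7.49, 7.50 and 7.31 with X5050, against 6.93, 7.11 and 7.02 with DMSO (change 0.41, paired SE 0.0939, adjusted p = 0.107 in limma). Its X5050 values lay above all DMSO values, while NRF1 (-0.13), GABPA (-0.11) and TFAM (-0.11) lay below 0.

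In the tricarboxylic acid cycle 6 of 11 genes were below 0 (median -0.16). Values ran from the oxoglutarate dehydrogenase OGDH (-0.31) to the isocitrate dehydrogenase subunit IDH3A (0.25). The median gene was MDH2, and the next higher value was 0.075 for DLST. In cultures 1, 2 and 3 the medians of this list were 0.035, -0.077 and -0.0025, all nearer 0. In glycolysis 13 of 16 were below 0 (median -0.14), with the pyruvate kinase PKM at -0.47 (paired SE 0.0979, adjusted p = 0.0868 in limma) and the neuronal enolase ENO2 at 0.43 (adjusted p = 0.152 in limma). Other large sets of housekeeping genes stood near the same value. The median change was -0.14 over 73 mitochondrial ribosomal protein genes (64 below 0, 26 separate), -0.11 over 61 cytosolic ribosomal protein genes (57 below 0, 9 separate) and -0.14 over 36 proteasome subunit genes (31 below 0, 12 separate). Their medians in cultures 1, 2 and 3 were -0.024, -0.19 and -0.22 for the mitochondrial ribosome, -0.026, -0.12 and -0.21 for the cytosolic ribosome, and -0.044, -0.25 and -0.14 for the proteasome. In the same order, 35.6%, 14.8% and 33.3% of the genes in these sets were separate, against 7.41% of all tested probe sets. No difference between these sets and the oxidative phosphorylation genes was tested.

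**Figure D4:**
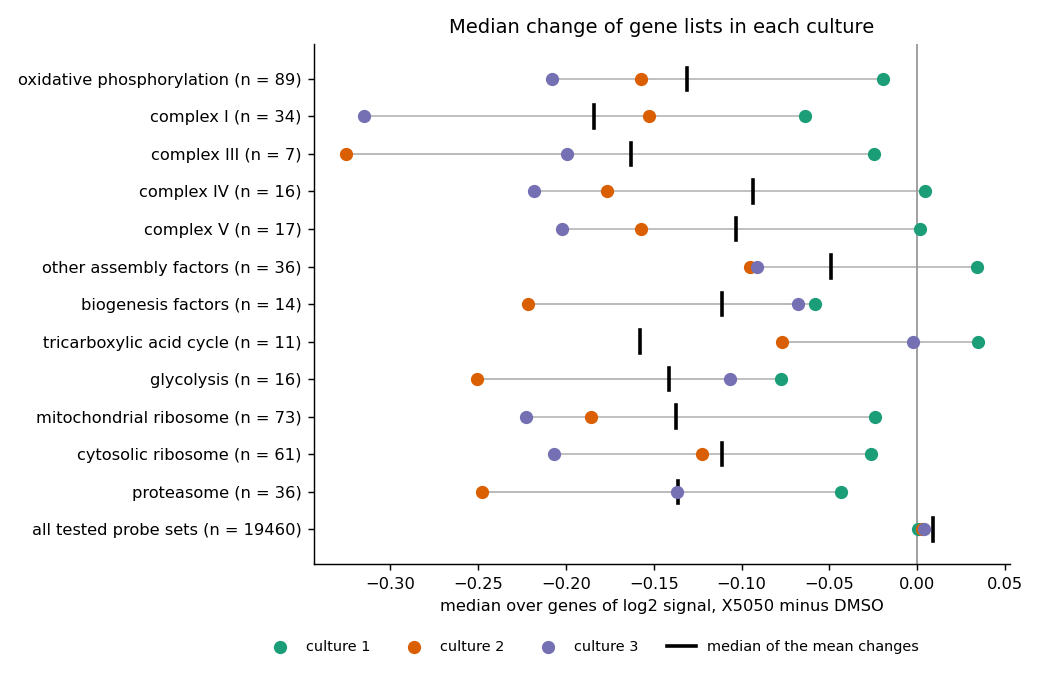
Median over genes of the log2 change under X5050 against DMSO (x axis) in cultures 1, 2 and 3 (coloured points) and of the mean over cultures (black bars), for each gene list (y axis, n genes measured). The points of culture 1 lie nearest 0 among the 3 cultures for the oxidative phosphorylation genes, the 4 complexes drawn, both ribosomes and the proteasome, and the points of all tested probe sets lie close to 0.

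The cells carried neural stem cell markers in all 6 arrays, and any 2 arrays correlated between 0.984 and 0.993. The array medians lay between 5.68 and 5.75. The summed linear signal of 10 such markers (SOX2, PAX6, NES, VIM and others) ran between 13300 and 13600 with X5050 and between 13500 and 14200 with DMSO, and 7 of the 10 were below 0 (median -0.14). The summed signal of 7 neuronal markers ran between 7720 and 9500 with X5050 and between 7170 and 9470 with DMSO. TUBB3, also on that list, had no probe set with exactly 1 symbol. Of these 7 markers 3 were below 0 (ELAVL4 at -0.19, DCX at -0.10 and RBFOX3 at -0.018), the median was 0.024, and SNAP25, a synaptic protein gene, rose by 0.66 on the log2 scale (adjusted p = 0.0328 in limma). That of 11 mesenchymal markers, genes of another cell type, ran between 1740 and 4580 with X5050 and between 1910 and 7170 with DMSO, highest in culture 1 under both treatments, and 9 of the 11 were below 0 (medians -0.34, -0.16 and -0.065 in cultures 1, 2 and 3). Of these markers LUM fell by 1.09 on the log2 scale (adjusted p = 0.0386 in limma). Without the culture block 0 of the 19460 probe sets passed, these 2 genes included. The values of 4 astrocyte markers summed to between 265 and 496 with X5050 and between 236 and 386 with DMSO. All 4 were above 0 (median 0.17, smallest adjusted p = 0.435 in limma), with medians of 0.35, 0.17 and -0.021 in cultures 1, 2 and 3. The values of 2 pluripotency markers, DPPA4 and LIN28A, summed to between 294 and 329 with X5050 and between 322 and 406 with DMSO. Of the 2, 1 was below 0 (DPPA4). POU5F1, NANOG and TDGF1, also on that list, had no probe set with exactly 1 symbol. No marker was at 0, as these arrays give every probe set a signal (lowest marker value 4.29). The part of these markers in the values of the oxidative phosphorylation genes was not tested. In bulk RNA, fewer cells with a transcript and less of it per cell cannot be told apart.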

How the data were processed

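The 6 samples gave 1 Affymetrix array each, from 100 ng of total RNA, per the labels' protocols. The authors deposited 1 log2 signal for every probe set; RMA and Partek appear in the submitters' processing notes, and the settings behind these values are unknown here. RMA compresses changes of dim probe sets. Of 33297 probe sets the 19460 with 1 gene symbol in the platform annotation were tested; 1754 had several and 12083 are unnamed here. There was no filter on low values. An alternative without dim probe sets (lowest quartile of mean signal) held 83 of the 89 genes.

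Sample titles gave the treatment and the replicate number. The design text names 3 independent cultures, each read as supplying both treatments. As a check of this pairing, residuals of arrays that share a number were correlated (0.365, 0.297 and 0.255). For arrays of different number the values lay between -0.236 and -0.052. Residuals were taken within each treatment, which by itself pushes values of different number below those of the same number where any are alike. The check cannot tell a shared culture from shared handling. The main fit was limma 3.58.1 in R 4.3.3, two-sided, with the replicate number as a block. Its SE, intervals and p-values rest on the spread between cultures of 1 line, moderated by the spread of all tested probe sets. For a gene with a small spread of its own the SE can be larger than that spread. ATP5F1B, for example, had an SD over cultures of 0.031 and a paired SE of 0.0862. The fit was also run on simulated arrays with independent noise and set changes larger than that of any member. That run does not show how well changes as small as these are called. Genes were named by a rule: in each complex the 3 with the smallest p, and a fixed list of subunits and isoforms. The rule also took the 3 extremes in each direction, the non-subunit with the smallest p and the member with the largest DMSO spread. Other genes (separate genes, sister genes, list extremes) were picked with their values in view. The members and lists were chosen with earlier results of these data known, and the grouping by role was made after the values were seen. Leaving out single arrays without the block was an alternative chosen after seeing the data. Gene lengths and promoters are RefSeq's (GRCh38.p14). Plots used Python 3.11.15 and matplotlib 3.10.9.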

Additional observations from a re-analysis of the deposited data

How the results depend on the processing

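The count of oxidative phosphorylation genes past the threshold in the limma fit was 0 with all 6 arrays. With 1 culture left out it ranged from 0 to 3, the 3 being called without culture 1. Dropping dim probe sets, centring arrays on their medians or applying another quantile normalization each left it at 0. So did summarising the probe sets of 1 gene by their median, and keeping the 77 subunits alone. The share of all tested probe sets that passed is not given for these settings. With all 6 arrays it was 0.498%, and a list of 89 genes can hold 0 at that share. With no replicate block the count was 0 too, but there 0 of all 19460 tested probe sets passed. The same holds without culture 3, so neither of these counts can show whether the result is stable. Without the replicate block the smallest adjusted p among the members in limma was 0.327. The median change of the members kept its sign in every setting run, between -0.19 without culture 1 and -0.079 without the block and without the DMSO array of culture 3. It was -0.15 after median centring and -0.11 after another quantile normalization. Of the 89 genes between 65 and 73 were below 0 in the settings that kept all of them. The sign of 7 of the 32 named genes, none past the threshold, turned under some setting. With 1 culture left out NDUFV1 ranged from -0.20 to 0.063, UQCRC1 from -0.17 to 0.054, UQCRB from -0.29 to 0.17, SDHA from -0.0088 to 0.12, COX7A1 from -0.026 to 0.17 and COX6A2 from -0.029 to 0.072. After median centring COX6A2 was -0.0042, and after another quantile normalization ATP5F1C was 0.0089. The causes were not tested. Most of these values are near or under the paired SE, and 3 cultures limit what can be called.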
